A study of Mus musculus with 6 samples.

Results

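Emx2, 7 measured genes near it on mouse chromosome 19 and its paralogue Emx1 were followed in the sensory lining of the nose, the olfactory epithelium, of mouse embryos at ED18.5. The 9 genes were chosen by their place at the targeted locus, by paralogy and with the wildtype-to-knockout values of these arrays already known, so their values are a description, given without p-values. Where calls of the fit over all clusters are counted, they are set beside the share of all clusters called and nothing is read from them. A gene was read from the transcript cluster that the platform annotation assigns to it alone. This gave 1 cluster each for 8 of the 9 genes, among 14807 genes with such a cluster. Emx1 was not analysed here. The 8 are Emx2, E330013P04Rik, Vax1, Slc18a2, Fam204a, Shtn1, Eno4 and Hspa12a.

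The study compared mice homozygous for the wildtype Emx2 allele with Emx2 knockout mice, with 3 arrays of each genotype. Each array held equal amounts of RNA from 3 embryos, so 9 animals stood behind each genotype and the spread between animals of 1 pool is not seen. The labels give neither strain nor how the knockout allele was made, nor whether littermates served as wildtype. Values are log2 signals of an Affymetrix exon array after RMA, a method that corrects background, equalises the distributions of the arrays and gives 1 value per cluster and array. A difference of 1 on this scale is a 2-fold change, and differences are given as knockout minus wildtype. The probes of different genes respond differently, so levels are compared only between arrays and never between genes.

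Emx2 and Emx1 are the mouse counterparts of the Drosophila head gene empty spiracles and encode homeodomain transcription factors. Emx2 patterns the developing forebrain and is needed for the urogenital system, the inner ear and the olfactory system, where it is made in the sensory epithelium. A targeted allele can change transcripts of the target itself and of genes near it. Any strain difference in DNA linked to the locus would follow genotype as well. With no strain given, it cannot be told apart from an effect of the allele. The question here is how far the values at and around the locus differed between the genotypes.

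The 6 arrays had medians between 7.64 and 7.73 over 16661 clusters. Markers of the tissue were measured on every array, and Omp, the standard marker of mature olfactory neurons, had values of 12.39, 11.82 and 12.51 in wildtype and 11.33, 11.62 and 11.22 in knockout arrays. The log2 of the summed signal of 9 mature neuron markers ran from 13.23 to 13.74 in wildtype and from 12.67 to 12.97 in knockout arrays. That of 8 bone and cartilage markers ran from 12.50 to 13.10 and from 13.17 to 13.47. For 5 markers of sustentacular (supporting) cells it overlapped, from 13.88 to 14.17 in wildtype and from 14.01 to 14.21 in knockout arrays. The sums weight the brightest markers most, and single markers could overlap where their sum did not. Gnal and Cngb1 of the mature neurons and Col1a1, Col2a1, Sox9 and Col10a1 of bone and cartilage were such markers. In bulk tissue fewer cells of a type and less RNA per cell cannot be told apart. The pools also differed in sex, since the Y-linked gene Eif2s3y had values of 3.30 to 3.69 on wildtype replicates 1 and 3 and knockout replicate 1, against 7.78 to 8.89 on the remaining arrays.

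The start regions of the targeted gene and of E330013P04Rik, the gene of the locus with the largest difference, are shown to give their sequence context. Both come from RefSeq on GRCm38.p6 and hold the 250 bases before the gene's start on the plus strand, chr19:59458440-59458689 for Emx2 and chr19:60144425-60144674 for E330013P04Rik. The third line is the stretch from base 27 to base 50 of Emx2, counted from 1 at its start, with the homeodomain core motif TAATTA in capitals from base 37.
Emx2 upstream: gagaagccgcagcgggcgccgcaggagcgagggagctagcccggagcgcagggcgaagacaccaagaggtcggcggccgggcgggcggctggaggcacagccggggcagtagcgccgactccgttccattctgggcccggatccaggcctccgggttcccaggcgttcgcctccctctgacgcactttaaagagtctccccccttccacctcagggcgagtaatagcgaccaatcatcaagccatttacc
E330013P04Rik upstream: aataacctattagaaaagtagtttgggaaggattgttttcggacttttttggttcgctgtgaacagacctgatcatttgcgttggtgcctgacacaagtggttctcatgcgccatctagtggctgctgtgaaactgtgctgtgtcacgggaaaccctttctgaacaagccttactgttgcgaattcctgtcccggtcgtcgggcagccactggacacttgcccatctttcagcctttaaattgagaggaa
Emx2 within its first bases: atccccgcacTAATTAggctcatg

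The Emx2 stretch had a GC content of 67.2% and 24 CpG dinucleotides, and the E330013P04Rik stretch had 47.6% and 9. The median GC content over the 32851 RefSeq promoter windows of 300 bases, which add 50 bases after the start, was 52.7%. TAATTA reads the same on both strands and occurs in 5.29% of those windows. Windows were found for 6 of the 8 genes, and only the Emx2 window held the motif. The E330013P04Rik window held no exact match of the motif, which says nothing about the binding of any factor.

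Emx2, the targeted gene, was at 8.37, 8.59 and 8.36 in wildtype replicates 1, 2 and 3 and at 8.38, 8.33 and 8.39 in the arrays labelled knockout. The genotypes overlapped, because wildtype replicates 1 and 3 lay among the knockout values and only wildtype replicate 2 stood above them. The means were 8.44 ± 0.13 (SD, n = 3) and 8.37 ± 0.03 (SD, n = 3). The difference came to -0.07 on the log2 scale (SE 0.09), and without wildtype replicate 2 it was 0.00273. On the same array the log2 of the summed signal of 8 brain and olfactory bulb neuron markers was 10.40, against 9.61 to 9.81 on the other 5. Each of these markers except Gad2 was highest on wildtype replicate 2. Gad2 was at 7.12 there and at 7.71 to 7.92 on the knockout arrays. The part of the brain marker signal in the Emx2 value was not tested. The cluster value is 1 number over all probes of the gene, and the sources used here do not say which exons the allele lacks or where the probes lie. The Emx2 value therefore does not check the genotype labels, and all directions below rest on those labels.

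E330013P04Rik, a long non-coding RNA in the RefSeq table, was the member with the large difference. Its values were 6.16, 6.45 and 6.39 in wildtype and 7.62, 7.69 and 7.60 in knockout arrays. All 3 knockout arrays were higher than all 3 wildtype arrays, and the gap of 1.15 between the nearest arrays was wider than the range of 0.29 within wildtype and of 0.09 within knockout. The means were 6.33 ± 0.15 and 7.64 ± 0.05 (SD, n = 3 each), a log2 difference of 1.30 (SE 0.10) or 2.47-fold. Of the 16661 clusters, 9 had a larger positive difference. The difference was 1.34 between knockout replicate 1 and wildtype replicates 1 and 3, the pools with low Y-linked signal, and 1.20 between knockout replicates 2 and 3 and wildtype replicate 2, the pools with high signal. The mature neuron and the bone and cartilage sums also differed between the genotypes without overlap, and their part in this value was not tested.

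E330013P04Rik lies on the far side of Emx2, toward the chromosome's end. In the RefSeq order 13 annotated genes stand between it and Emx2, and the 1 protein-coding gene among them, Rab11fip2, was not analysed here. It is thus the next measured gene after Emx2, not the next annotated gene. Emx2os, the annotated antisense RNA beside Emx2, was not analysed here either.

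**Figure D1:**
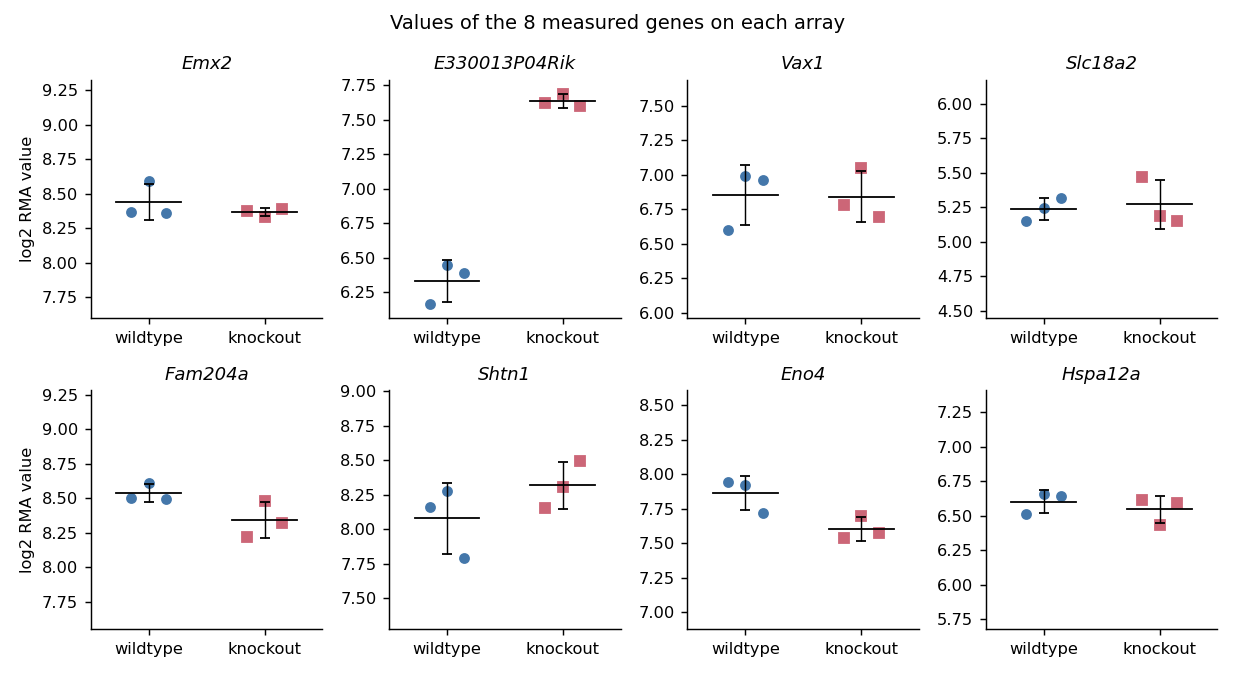
Log2 RMA value (vertical axis, same span in each panel) of the 8 measured genes on the 3 wildtype arrays (circles) and the 3 knockout arrays (squares), with the mean (horizontal line) and SD (bar). E330013P04Rik separates the genotypes by 1.15 at the nearest arrays, while Emx2 overlaps, with values from 8.33 to 8.59.

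Fam204a, the next measured gene beyond E330013P04Rik, differed in the opposite direction and by far less. It was at 8.50, 8.61 and 8.49 in wildtype and at 8.22, 8.48 and 8.32 in knockout arrays. The knockout arrays were all lower, but knockout replicate 2 came within 0.015 of the lowest wildtype array. The log2 difference was -0.19 (SE 0.10).

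On the near side of Emx2, Slc18a2 is the first measured gene. It encodes the vesicular monoamine transporter, which loads monoamine transmitters into vesicles. Its cluster was among the dim ones that a filter described below left out. Its values were 5.15, 5.24 and 5.31 in wildtype and 5.47, 5.19 and 5.15 in knockout arrays. The ranges overlapped and only knockout replicate 1 lay above all wildtype arrays, and the log2 difference was 0.03 (SE 0.11). It was 0.24 in low-Y pools, with 1 knockout array, and -0.08 in high-Y pools, with 1 wildtype array.

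Vax1, the other homeobox gene of the locus, acts in the ventral forebrain and the optic stalk. It was at 6.60, 6.99 and 6.96 in wildtype and at 6.78, 7.05 and 6.69 in knockout arrays. The genotypes overlapped over most of their range, and the log2 difference was -0.01 (SE 0.14).

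Shtn1 encodes shootin, which couples actin flow to adhesion in growing axons. It was at 8.16, 8.28 and 7.79 in wildtype and at 8.16, 8.30 and 8.49 in knockout arrays. Knockout replicate 1 overlapped with wildtype replicate 1, and the log2 difference of 0.24 (SE 0.15) was smaller than the wildtype SD of 0.25. It was 0.10 without wildtype replicate 3, the lowest array.

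Eno4 encodes an enolase-like protein needed for sperm movement in mice. Its values were 7.95, 7.92 and 7.72 in wildtype and 7.54, 7.70 and 7.57 in knockout arrays. The knockout arrays were all lower, but the nearest arrays of the genotypes were only 0.023 apart. The log2 difference was -0.26 (SE 0.10).

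Hspa12a, an atypical member of the Hsp70 family, overlaps with Eno4 in the RefSeq table, and the sources used here do not say whether probes of either gene lie in the shared stretch. It was at 6.51, 6.66 and 6.64 in wildtype and at 6.61, 6.43 and 6.59 in knockout arrays. The genotypes overlapped, with a log2 difference of -0.06 (SE 0.09).

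Of the 8 genes, 5 had a negative and 3 a positive difference, with a median of -0.03 against -0.04 over all 16661 clusters. Without E330013P04Rik the other 7 ran from -0.26 to 0.24. In the limma fit over all clusters (Benjamini-Hochberg adjusted p at or under 0.05), 1 of the 8 was called, E330013P04Rik, higher in the knockout arrays, and 0 were called lower. The same rule called 2.04% of all clusters, 0.144% as higher and 1.9% as lower. The arrays of the genotypes did not overlap for 3 of the 8, for E330013P04Rik as higher and for Eno4 and Fam204a as lower. Over all clusters this was so for 15.5%, for 3.51% as higher and for 12% as lower. Since this contrast was known when the genes were chosen, nothing is read from these shares.

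The wider neighbourhood was described with genes taken by position alone, the 10 measured genes on each side of Emx2 in the RefSeq order. Emx2 lies near the end of its chromosome, and the 10 genes on the far side are all that were measured there. Leaving out the genes already described, 13 genes remained, from 1810018F18Rik to Kcnk18 on the near side and from Prlhr to Grk5 on the far side. Of these 13, 0 passed the limma fit over all clusters in either direction, beside 2.04% of all clusters called. The median log2 difference of the 13 was -0.03, with 5 positive and 8 negative.

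The 3 neighbours with the smallest p were 1700019N19Rik, Sfxn4 and Kcnk18. 1700019N19Rik was at 4.69, 4.63 and 4.63 in wildtype and at 4.54, 4.37 and 4.37 in knockout arrays, a log2 difference of -0.22 (SE 0.09; limma adjusted p = 0.426). Its arrays did not overlap, but the difference did not pass, and it was -0.033 after a further quantile normalization. Sfxn4, a mitochondrial protein of the sideroflexin family, was at 7.08, 7.13 and 7.36 in wildtype and at 6.78, 7.10 and 6.85 in knockout arrays, a log2 difference of -0.28 (SE 0.12; limma adjusted p = 0.514). Kcnk18 encodes a two-pore potassium channel of sensory neurons and lies between Vax1 and Slc18a2. It was at 4.76, 4.29 and 4.93 in wildtype and at 5.46, 4.47 and 5.31 in knockout arrays, a log2 difference of 0.42 (SE 0.28; limma adjusted p = 0.748), and the ranges overlapped. Leaving out knockout replicate 2 raised its difference to 0.72, while it was 0.23 when knockout replicate 1 and 0.24 when wildtype replicate 2 was left out.

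**Figure D2:**
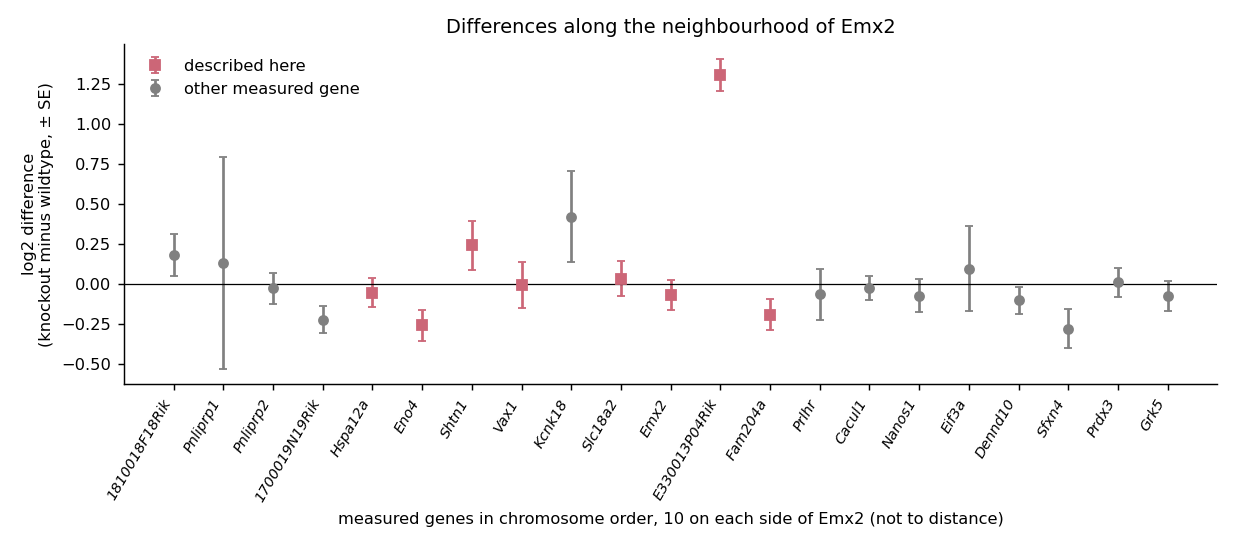
Log2 difference, knockout minus wildtype, with its limma SE (bars), for Emx2 and the 10 measured genes on each side in chromosome order, not to distance (squares are the 8 genes described first, circles the other 13). E330013P04Rik stands at 1.30, and the next largest positive difference is that of Kcnk18 at 0.42, whose SE is 0.28.

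Genes whose array pattern was most like that of E330013P04Rik were looked for over the 6 arrays. Likeness was the root mean square difference between profiles, each centred on its own mean, so a value of 0 means identical profiles. Among 14806 other genes the nearest was Trpa1, an irritant-sensing cation channel, at 0.086, followed by the odorant receptors Olfr464 at 0.14 and Olfr736 at 0.16, the collagenase Mmp13 at 0.18 and the cation channel Trpc4 at 0.18. The median over all genes was 0.69. Trpa1 was at 4.17, 4.30 and 4.19 in wildtype and at 5.41, 5.63 and 5.37 in knockout arrays. All 5 genes were higher on every knockout than on every wildtype array, which the choice by likeness sets.

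Emx2 had many genes of like profile, since its own profile was nearly flat. Of the 14806 other genes, 2115 lay within 0.1 of it, against 1 for E330013P04Rik. The nearest were 2210010C04Rik at 0.024, Gnpda2 at 0.027, Trdmt1 at 0.027, Pard6g at 0.028 and Grin2d at 0.028. All had their highest value on wildtype replicate 2, as Emx2 did, which the choice by likeness favours. Among the genes of the locus Hspa12a was nearest to Emx2, at 0.075, and E330013P04Rik was at 0.69. Eno4 and Fam204a lay 0.078 from each other.

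**Figure D3:**
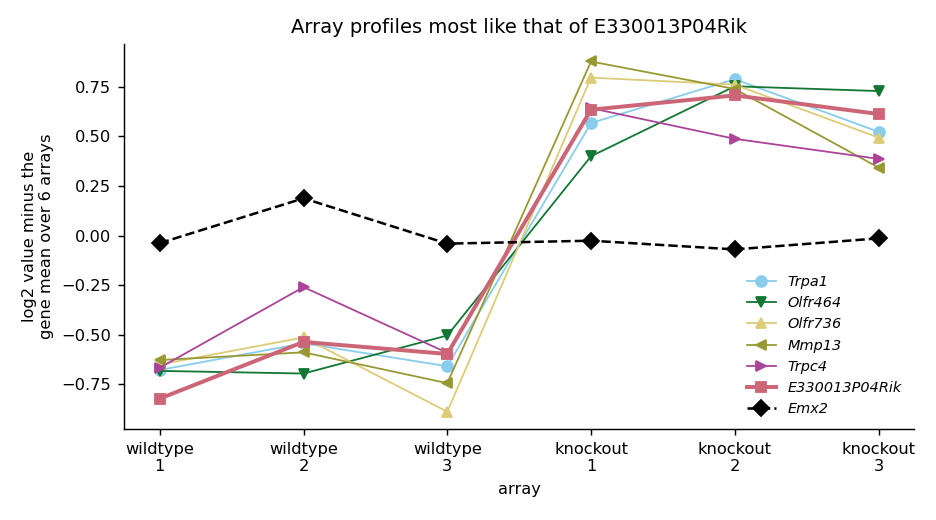
Log2 value of each gene minus its own mean over the 6 arrays (vertical axis) on each array (horizontal axis), for E330013P04Rik (thick line), the 5 genes with the most like profile and Emx2 (dashed). Trpa1 follows E330013P04Rik most closely, with a root mean square difference of 0.086, while Emx2 stays near 0 on both genotypes. Lines join arrays only to guide the eye.

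Genes linked to Emx2 in earlier work on other tissues, mostly the forebrain, were then read from the same fit. These lists were chosen with earlier results of these data known, so their calls and p-values are a description and not separate support. Regulators of Emx2 in the forebrain, such as the Hedgehog effector Gli3, the Dmrt factors and the Wnt and Bmp ligands, were all measured. Of these 8, 0 passed in either direction (limma), beside 2.04% of all clusters called, and the median log2 difference of the 8 was 0.03. The 3 with the smallest p were Gli3 at 0.19 (SE 0.12), Dmrt3 at -0.14 (SE 0.10) and Pax6, a homeodomain factor that patterns the cortex together with Emx2, at 0.09 (SE 0.08). Gli3 was at 0.065 without wildtype replicate 3.

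Among partners and co-acting patterning factors, 7 genes were analysed here. Of the 7, 0 passed in either direction (limma), beside 2.04% of all clusters called, and the median of the 7 was 0.06. The smallest p was that of Pbx2, a homeodomain cofactor. Pbx2 was at 8.46, 8.42 and 8.40 in wildtype and at 8.77, 8.74 and 8.66 in knockout arrays. The knockout arrays were all higher, with a log2 difference of 0.30 (SE 0.08; limma adjusted p = 0.160). Nr2f1, a nuclear receptor of cortical area patterning, was at 0.26 (SE 0.16) and Otx1, a head homeobox gene, at 0.12 (SE 0.09). Nr2f1 was at 0.13 without knockout replicate 1 and at 0.42 without knockout replicate 2.

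Among genes reported downstream of Emx2, 4 were analysed here. Of the 4, 1 fell and 0 rose over all clusters tested, beside the 1.9% of all clusters that were called lower, and the median was -0.10. Since earlier results of these data were known when the list was chosen, nothing is read from this count or from the p-value below. The gene that fell was Stk32a, a kinase gene that Emx2 represses in hair cells of the mouse inner ear. It was at 9.12, 9.11 and 9.23 in wildtype and at 8.25, 8.37 and 8.14 in knockout arrays, so all knockout arrays were lower. The log2 difference was -0.90 (SE 0.09; limma adjusted p = 0.00716), or 1.87-fold lower. Lower values in knockout arrays are opposite in direction to a loss of the repression reported in the inner ear. The summed mature neuron markers were also lower in these arrays, by the ranges given above. The log2 of the summed signal of 4 immature neuron markers ran from 13.20 to 13.30 in wildtype and from 12.89 to 12.99 in knockout arrays. The part of either in this fall was not tested.

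The other downstream genes gave no call. Tenm1, a teneurin adhesion protein whose gene responds to Emx2 in the mouse cortex, was at 5.61, 5.85 and 5.71 in wildtype and at 5.74, 5.35 and 5.41 in knockout arrays, a log2 difference of -0.22 (SE 0.13; limma adjusted p = 0.695). Sox2, a progenitor factor whose gene Emx2 represses in neural precursors, was at 10.26, 10.47 and 10.41 in wildtype and at 10.41, 10.49 and 10.39 in knockout arrays, a difference of 0.05 (SE 0.09). Wnt1, a signalling gene that Emx2 represses in the forebrain, was at 0.02 (SE 0.10).

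**Figure D4:**
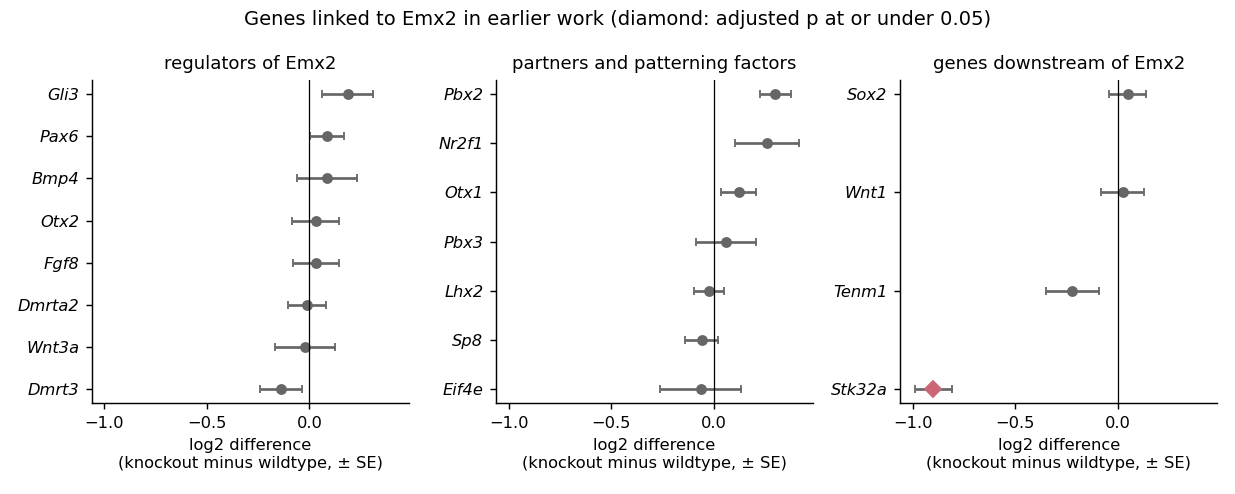
Log2 difference, knockout minus wildtype (horizontal axis), with its limma SE (bars), for the measured members of 3 lists of genes linked to Emx2, 8 regulators, 7 partners and patterning factors and 4 downstream genes. Stk32a at -0.90 is the gene that passed the threshold (diamond), and the others (circles) did not.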

How the data were processed

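Total RNA of dissected olfactory epithelium from ED18.5 mouse embryos was pooled over 3 animals per array, and targets made from 2.7 ug were hybridised to exon arrays, per the labels. The deposited table holds log2 values. The submitters' processing notes name RMA and Affymetrix Expression Console as the authors' tools, with no version, and the annotation level and build were not given in the sources used here. RMA assumes that most clusters do not change, and 1 value per gene hides a change limited to some exons.

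Of 23238 probe sets, the 16661 clusters in the numbering range of the platform annotation were tested. Of these, 14939 named 1 gene, 989 several and 733 none, and only the first were named. The brightest cluster stood for a gene. Chromosome order came from the RefSeq gene table of GRCm38.p6, in which 14752 genes were found by Entrez identifier. The members and lists were chosen with earlier results of these data known.

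The fit across all 16661 clusters used limma 3.58.1 under R 4.3.3 (lmFit and eBayes) with two-sided p-values, adjusted by Benjamini-Hochberg, and calls were made at 0.05. No set tests were run. The named genes are the 9 members and, among the neighbours and in each Emx2-linked list, called genes and the 3 with the smallest p. The 5 of most like profile to E330013P04Rik and to Emx2 were also named. Pnliprp1 was named after its values were seen. Wnt1 and the single markers of cell type and sex were named outside this rule, some also after their values were seen. The fit was tested on simulated data. Correlations over all pairs of arrays ran from 0.975 to 0.991, and each array was counted as 1 replicate. The labels give separate pools, and the precision is limited by the number of arrays. Motifs were searched by exact match. Plots were drawn with matplotlib 3.10.9. Some genes of the lists are not reported here.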

Additional observations from a re-analysis of the deposited data

How the results depend on the processing

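The fit was repeated with other scalings, without dim clusters, with other variance models, array weights, all probe sets, Y-linked signal as a covariate, the replicate number as a block and each array left out. The alternatives refit the same 6 arrays, whose results were known when members and lists were chosen, so nothing is read from repeated calls. In all 15, E330013P04Rik was the 1 listed gene called, and its difference stayed between 1.22 and 1.36. That of Emx2 ran from -0.12 to 0.00273, with the sign changed only without wildtype replicate 2. The listed genes near 0 changed sign in some alternatives, Vax1 in 6, Slc18a2 in 2 and Hspa12a in 1, and Fam204a, Shtn1 and Eno4 in none. A further quantile normalization moved Slc18a2 to 0.18 and 1700019N19Rik to -0.033, and turned the neighbours' median to 0.07 and the downstream median to 0.00868, and the cause was not tested. The filter, at the 25th percentile of mean value, left fewer downstream genes, with a median of -0.43. It also left out the dim clusters of Slc18a2, 1700019N19Rik and Kcnk18, so 7 listed genes were tested with it. Without wildtype replicate 1, Sox2 was at -0.013. Stk32a passed in all 15 alternatives (limma adjusted p from 0.00470 to 0.0476, the highest with the replicate block). Neighbours and the other list genes gave no call in any. Nor did neighbours with 5 taken a side, or with 25 on the near side and the 10 measured on the far side.

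The count of clusters called lower over the whole table was 316. It rose to 337 with an intensity trend in the variance and to 362 with array weights. It was 215 with a further quantile normalization, 109 of 12495 with the filter and 144 with all probe sets. It was 168 with the replicate block, 186 with the Y-linked covariate and 145 to 224 with an array left out. The count of clusters called higher was 24, and 13 to 23 with an array left out. It was 31 with array weights and 32 with a further quantile normalization. Same-numbered arrays did not deviate together (correlations 0.00744, 0.0486 and -0.17), so the numbers were not treated as pairs. With the replicate block the difference of E330013P04Rik was 1.30 (SE 0.10) and that of Emx2 -0.07 (SE 0.11). Probe-level signal over background is unknown, so small differences of dim clusters may be compressed.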

Other observations

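Pnliprp1, a pancreatic lipase-related gene 9 measured genes from Emx2, varied between arrays without following genotype. It was at 7.22, 5.33 and 5.77 in wildtype and at 5.47, 5.72 and 7.52 in knockout arrays, so that wildtype replicate 1 and knockout replicate 3 stood above the other 4 arrays. The log2 difference was 0.13 (SE 0.66; limma adjusted p = 0.984), and the SE exceeded that of the other 12 neighbours.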
